A study of Mus musculus with 2 samples.

Results

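The 8 genes described here encode proteins of cell junctions and the cell cortex that bind or regulate the transcriptional coactivators YAP and TAZ. They are the angiomotins Amot, Amotl1 and Amotl2, the LIM domain proteins Ajuba and Limd1, the phosphatase Ptpn14, the scaffold Dlg5 and the adaptor Wwc2. They were chosen by name, with earlier results of these data known, and they are 8 of the 18193 genes named by a probe set of the array. All 21 probe sets that the platform annotation assigns to exactly 1 of these genes were used. The samples were whole lungs of mouse embryos at E15.5 (embryonic day), wild type or TAZ-deficient, the wild type animals being littermates. For each group, 4 total RNA samples had been combined into 1 pool and hybridised to 1 one-colour Affymetrix array. The allele behind the deficiency, the cell types in which TAZ was lost, the sex of the embryos and the strain were not given in the sources used here. With 1 array per group there is no replicate check and no test for any difference.

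TAZ and its paralogue YAP carry no DNA-binding domain and act on genes through TEAD transcription factors. When the Hippo kinases LATS1 and LATS2 phosphorylate them they are held in the cytoplasm. Angiomotins bind YAP and TAZ directly at tight junctions and along actin filaments, and can retain them there independently of that phosphorylation. Several such regulators, among them Amotl2, Ajuba and Ptpn14, are also known as targets of YAP and TAZ in other cells, so that they can take part in a feedback loop. In the embryonic lung YAP and TAZ are known for roles in airway patterning and in the differentiation of the distal epithelium.

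Signals are array units on the deposited linear scale. Values below 15.2 units, the median signal without control probe sets, were raised to that floor. Ratios are the TAZ-deficient over the wild type signal, on the log2 scale. A gene counts as measured when its probe set with the highest mean log2 signal exceeds the floor on at least 1 array. All 8 genes met this, as did 12032 genes in all. The brightest probe set of Wwtr1, which encodes TAZ, read 791.2 in the wild type pool and 11.3 in the other, so that the arrays followed their labels. Whether its probes lie in a deleted part is not known here.

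The promoters of the genes were searched for GGAATG, the core of the motif bound by TEAD factors, on both strands, where the opposite strand reads CATTCC. No other motif was searched. Windows of 300 bases, from 250 before to 50 after an annotated transcript start, came from RefSeq on GRCm38.p6 and held 7 of the 8 genes. The motif was present in 4 of these 7 windows, and in 14.7% of the 32851 windows of the same length in the table. It was not particular to these genes, being found for 6 of 8 genes of the list of YAP, TAZ and their nuclear partners and for 4 of 6 LIM proteins related to Ajuba, but for 3 of 17 junction and polarity scaffolds. It occurred 3 times in Wwc2, 2 times in Ajuba and 1 time each in Amotl2 and Ptpn14. At least 2 occurrences were found in 1.36% of all windows and at least 3 in 0.13%. No match was found in the windows of Amot, Amotl1 and Dlg5. The stretches with matches are shown because the motif is that of the DNA-binding partners of TAZ. Each is written 5′ to 3′ along the gene's own strand with the motif in capitals.
Wwc2, chr8:47990606-47990759, minus strand: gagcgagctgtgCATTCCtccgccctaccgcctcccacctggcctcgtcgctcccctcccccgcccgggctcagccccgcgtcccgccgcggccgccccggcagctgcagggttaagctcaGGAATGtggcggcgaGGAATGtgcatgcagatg
Ajuba, chr14:54577808-54577859, minus strand: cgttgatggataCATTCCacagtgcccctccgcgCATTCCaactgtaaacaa
Ptpn14, chr1:189728110-189728139, plus strand: cctccccggacgCATTCCtggcccgcccag
Amotl2, chr9:102717727-102717756, plus strand: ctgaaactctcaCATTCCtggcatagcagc

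The first base of the motif lay 65 bases before the start in Amotl2, 146 in Ptpn14, 186 and 164 in Ajuba, and 203, 94 and 79 in Wwc2. The stretch of Amotl2 lies inside the annotated gene, because other transcripts of Amotl2 begin further upstream, and those of the other 3 genes lie before the annotated gene.

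**Figure D1:**
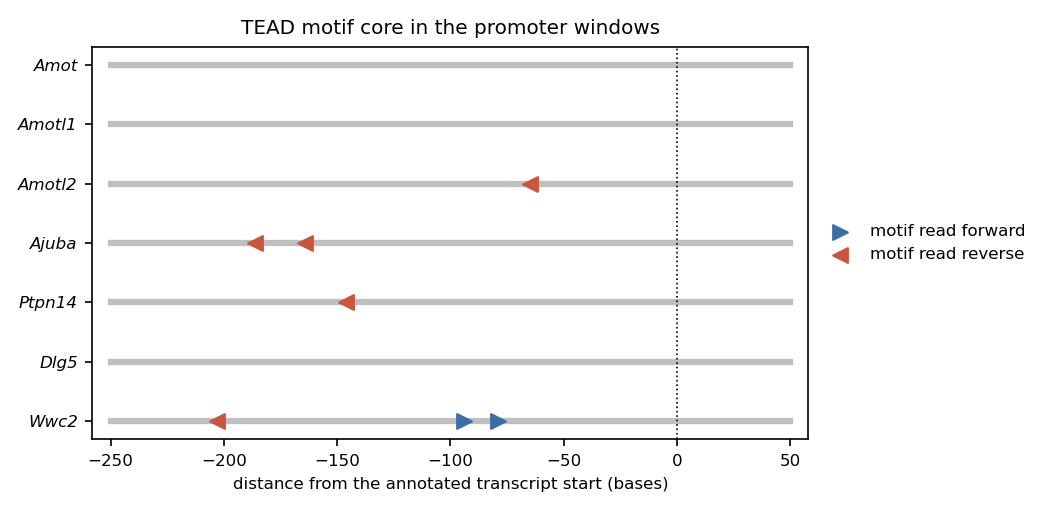
Position of the TEAD motif core relative to the annotated transcript start (dotted line) in the 300-base windows of 7 genes, with the distance in bases on the horizontal axis and triangles for the motif read forward (blue) or reverse (red). Matches appear in Amotl2, Ajuba, Ptpn14 and Wwc2, all before the start, and in none of the other 3 windows.

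None of the 8 genes differed by 1.5-fold between the pools, and 5 of the 8 lay within 1.1-fold. Over all measured genes 2.73% differed by at least 1.5-fold in either direction, and 58.4% lay within 1.1-fold. Amot (1.38-fold higher) and Limd1 (1.25-fold higher) were the members with the highest ratios at their brightest probe sets, but the probe sets of Amot disagreed in sign. Ratios were above 0 for 5 members and below 0 for 3, and above 0 for 46.8% of all measured genes. The median log2 ratio of the 8 genes was 0.048, beside -0.013 for all measured genes. With 8 genes, a count of 0 is close to what that background share gives. The median size of the log2 ratio, whatever its sign, was 0.066 for the 8 genes and 0.11 for all measured genes.

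**Figure D2:**
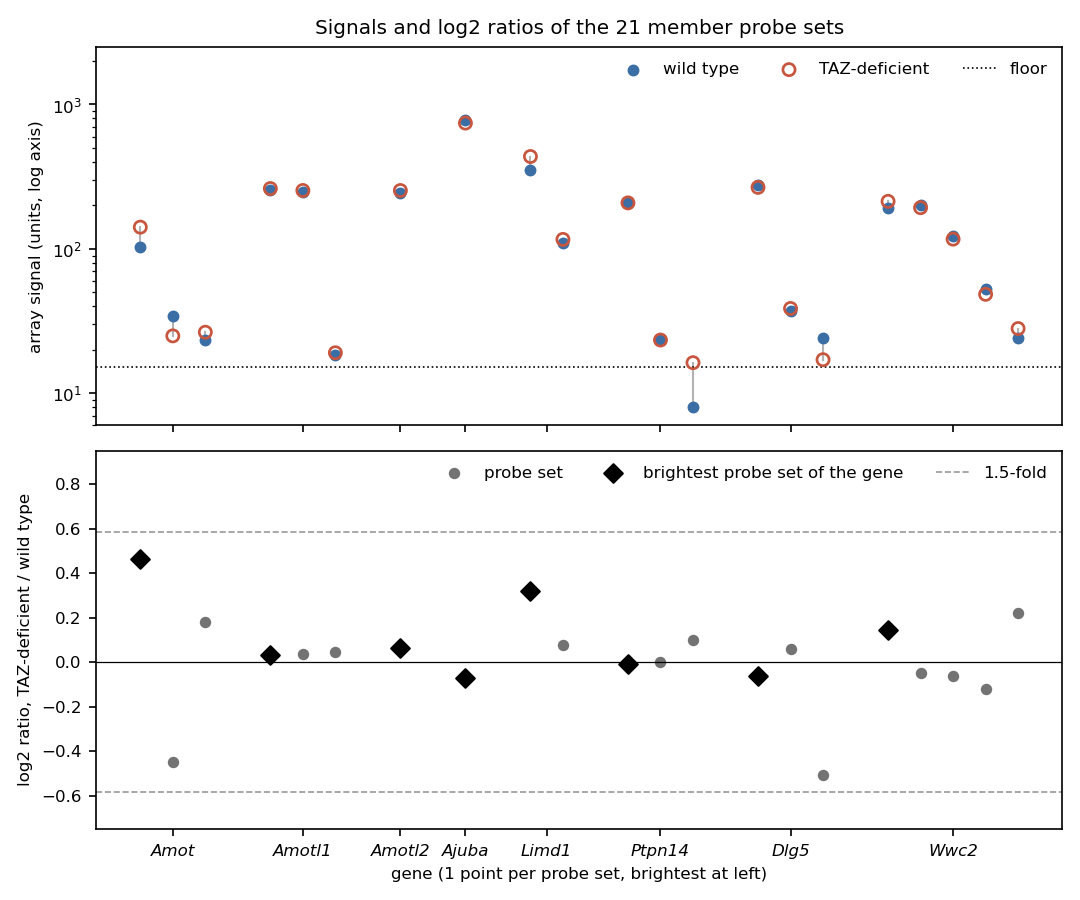
Upper panel: array signal (log axis) of each of the 21 probe sets of the 8 genes, with filled points for the wild type pool and open circles for the TAZ-deficient pool, and a dotted line at the floor of 15.2. Lower panel: log2 ratio of the same probe sets, with diamonds for the brightest probe set of each gene and dashed lines at 1.5-fold; the ratios, taken after the floor, lie between the dashed lines, the dimmest of Ptpn14 being a lower bound, and Amot and Dlg5 have the widest spread.

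Amot, the founding member of the angiomotins, binds YAP and TAZ through short proline-rich motifs in its long isoform. Its brightest probe set, 1454890_at, read 102.5 in the wild type pool and 141.5 in the TAZ-deficient pool, a log2 ratio of 0.47. Of the measured genes, 2.33% had a higher ratio. The second probe set, 1425907_s_at, read 34.1 and 25, a log2 ratio of -0.45, and the third, 1427584_at, read 23.4 and 26.5, a log2 ratio of 0.18. The TAZ-deficient pool was thus the higher at 2 probe sets of Amot and the lower at the remaining probe set, whose suffix marks a set that may be shared between transcripts. The ratios of the 3 Amot probe sets spanned 0.91 log2 units. Among the 1403 genes with 3 probe sets above the floor the median span was 0.27, and 3.49% had a span at least as wide. Which Amot isoforms each probe set detects was not examined.

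Amotl1, a paralogue that also sits at tight junctions, gave the same small difference at all its probe sets. They read 255.8 and 261.8, 247.2 and 253.8, and 18.5 and 19.1, with log2 ratios between 0.033 and 0.046. The signals of the last of these lay just above the floor. The TAZ-deficient pool was the higher at all 3, by at most 1.03-fold. The span of 0.013 log2 units was narrower than that of most genes with 3 probe sets, 99.9% of which had a span at least as wide.

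Amotl2, an angiomotin that couples cadherin junctions to actin and is often used as a readout of YAP and TAZ activity, had 1 probe set. It read 243.0 in the wild type and 253.7 in the TAZ-deficient pool, 1.04-fold higher (log2 ratio 0.062), and 70.2% of measured genes had a ratio at least as large in size. Across the angiomotins, 6 of 7 probe sets were higher in the TAZ-deficient pool and 1 was lower, with a median log2 ratio of 0.046. Of those higher, 3 were the probe sets of Amotl1, which are repeat readings of 1 gene. Over all measured genes, 46.8% had a ratio above 0.

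Ajuba and Limd1 belong to a family of LIM domain proteins that bind LATS kinases at tensed adherens junctions and restrain them. Ajuba, with 1 probe set, read 780.6 in the wild type and 743.5 in the TAZ-deficient pool, 1.05-fold lower (log2 ratio -0.070). Limd1 read 349.8 and 436.3 at its brighter probe set, 1422731_at, a log2 ratio of 0.32, and 5.78% of measured genes had a higher ratio. Its other probe set read 110.3 and 116.4, a log2 ratio of 0.078. Both Limd1 probe sets were thus higher in the TAZ-deficient pool. They differed by 0.24 log2 units, and 29.9% of the 5637 genes with 2 or more such sets had a difference at least as large between their brightest pair.

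Ptpn14 is a cytoplasmic tyrosine phosphatase that binds the WW domains of YAP and promotes its retention outside the nucleus. Its brightest probe set read 209.3 and 208.3 (log2 ratio -0.0069), and the second read 23.4 on both arrays. The third probe set read 8.0 in the wild type and 16.3 in the TAZ-deficient pool. This is at least 1.07-fold higher, since the wild type signal lay below the floor. The pools thus read nearly alike at the first 2 probe sets of Ptpn14, only a bound can be given at the third, and the sign at the brightest turned positive under median centring, quantile normalization and lowess.

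Dlg5 is a membrane-associated guanylate kinase scaffold that takes part in epithelial polarity and in Hippo signalling. The brightest of its probe sets read 278.6 in the wild type and 266.8 in the TAZ-deficient pool, 1.04-fold lower (log2 ratio -0.062). The 2 dimmer probe sets pointed in opposite directions. They read 37.1 and 38.7 (log2 ratio 0.061), and 24.3 and 17.1 (log2 ratio -0.51). The last of these values, from signals just above the floor, was the lowest ratio among the 21 probe sets.

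Wwc2, a paralogue of the LATS activator WWC1 (KIBRA), had 5 probe sets, 2 of them higher and 3 lower in the TAZ-deficient pool. The brightest, a set with the suffix of a shared probe set, read 193.0 and 213.5 (log2 ratio 0.15). The next, 1448611_at, which has no such suffix, read 199.8 and 193.0 (log2 ratio -0.050). The other 3 read 122.1 and 116.9, 52.8 and 48.5, and 24.1 and 28.1, with log2 ratios of -0.063, -0.12 and 0.22. The direction for Wwc2 therefore depends on the probe set, and its median over probe sets was -0.050.

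Of the 21 probe sets, 12 had ratios above 0, 8 below 0 and 1 at 0, and 20 of them, above the floor on both arrays, differed by less than 1.5-fold. The remaining one, 1436442_at of Ptpn14, has only a bound, its deposited values of 8.0 and 16.3 being 2.04-fold apart. Of the 21294 probe sets above the floor on at least 1 array, 3.4% were 1.5-fold different with the floor in place. The 12 that read above 100 units on both arrays had a median ratio size of 0.063 log2 units, and all such probe sets of the table had 0.087. The 9 dimmer ones had 0.12, beside 0.18 for the dimmer probe sets of the table above the floor. The members' probe sets thus differed more where the signal was dim, as did those of the whole table. Disagreement between probe sets of a gene was the only measure of error, with an SD of 0.20 log2 units for a single probe set over those 5637 genes. That SD holds no variation between embryos, pools or arrays. Where both probe sets of the pair exceeded 106.3 units in mean signal the SD was 0.13, and for the other genes it was 0.24. Only Amot and Limd1 had a log2 ratio larger in size than 0.20 at their brightest probe set. That of Wwc2 (0.15) was larger than 0.13.

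**Figure D3:**
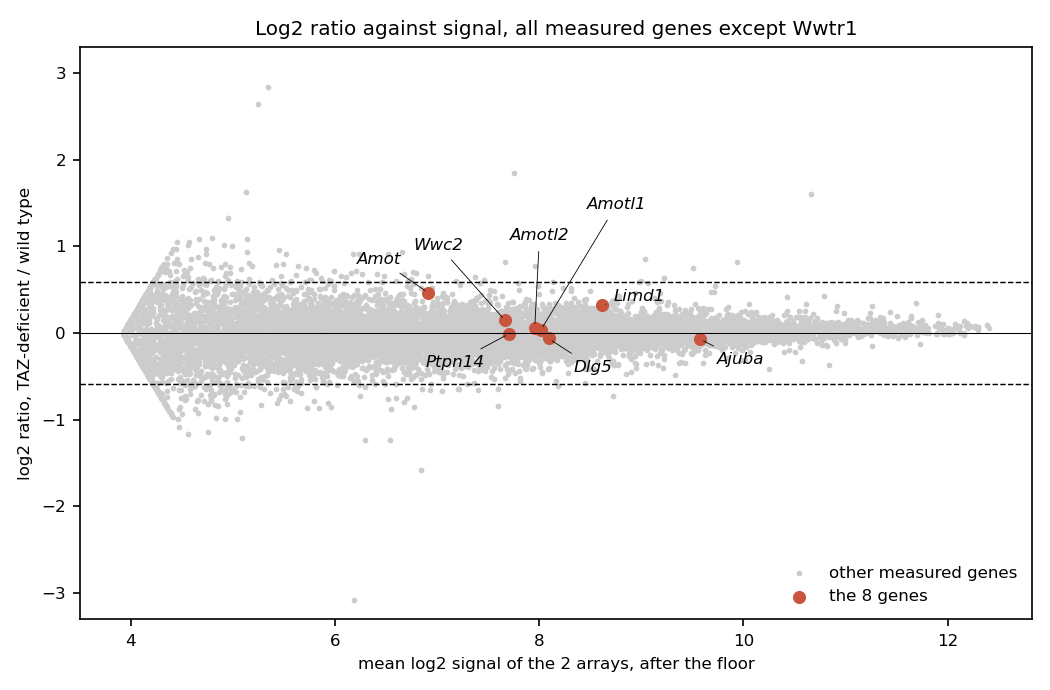
Log2 ratio (TAZ-deficient to wild type) against the mean log2 signal of the arrays for all measured genes except Wwtr1 (grey points), with the 8 genes in red and dashed lines at 1.5-fold. All 8 genes lie between the dashed lines, Amot being the highest at a log2 ratio of 0.47.

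The 4 genes with a TEAD motif core in the promoter window had log2 ratios of 0.062 (Amotl2), -0.070 (Ajuba), -0.0069 (Ptpn14) and 0.15 (Wwc2). The 3 without one had 0.47 (Amot), 0.033 (Amotl1) and -0.062 (Dlg5). The ratios of these groups of genes overlapped. Over all measured genes the median log2 ratio was -0.011 for the 1404 with the motif in a window and -0.013 for the 8323 with a window and no match. A match is a description of letters and shows no binding.

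The genes that act with these regulators were compared through lists by function, against the 2.73% of all measured genes that were 1.5-fold different. For counts by sign, the share of all measured genes with a ratio above 0 was 46.8%. Of the Hippo kinases and their adaptors, 0 of 17 measured genes were 1.5-fold different, 6 ratios being above 0 and 11 below, with a median log2 ratio of -0.10. The brightest were Mob1a, a LATS cofactor (656.5 and 589.6), and Stk4, the kinase MST1 (392.8 and 411.2). YAP and the nuclear partners, with Wwtr1 left out, had 0 of 8 at 1.5-fold and a median of -0.23. Ratios were above 0 for 2 of them and below 0 for 6. The brightest were Yap1 (646.2 and 681.1) and Tead2 (579.2 and 569.0). All of those below 0 except Tead2 were dim, reading at most 72 units on either array.

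Among relatives and binding partners of the 8 genes, 1 gene passed 1.5-fold. Zyxin and other LIM proteins related to Ajuba had 0 of 6 at 1.5-fold and a median log2 ratio of 0.040, the brightest being Limd2 (1508.3 and 1588.9) and Lpp, a focal adhesion LIM protein (652.3 and 615.7). Of the enzymes that ubiquitinate, deubiquitinate or PARylate angiomotins, 0 of 9 were 1.5-fold different, with a median of -0.0088. The brightest were the ligase Nedd4 (3134.2 and 3115.2) and the tankyrase Tnks2 (1037.5 and 1147.5). Junction and polarity scaffolds had 17 ratios above 0 and 5 below, with a median of 0.068. Among them 1 of 22, the cadherin Fat4 (71.8 and 108.3, 1.51-fold higher), passed 1.5-fold, and its other probe set had a log2 ratio of 0.064. It did not pass with the higher floor, with log2(signal + 16), with the median over probe sets or without shared probe sets.

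Amotl2, Ajuba and Ptpn14 lay within 1.05-fold, and the other known targets of YAP and TAZ differed in both directions. Of 22 measured targets, 8 had ratios above 0 and 14 below, with a median log2 ratio of -0.055. Myof, a ferlin of membrane repair, was 1.72-fold higher (32.6 and 56.2) and Crim1, a regulator of growth factors, 1.51-fold lower (30.6 and 20.3). Next in size were Ccn1 (139.8 and 100, log2 ratio -0.48), Ccn2 (215.5 and 159.1, -0.44) and Igfbp3 (78.9 and 103.4, 0.39). Crim1 was higher at its other probe set (log2 ratio 0.29). It passed 1.5-fold as reported, with the lower floor and without shared probe sets, but under none of the other settings. The probe set of Myof has the suffix of a shared set. Myof did not pass with the higher floor, with log2(signal + 16) or without shared probe sets.

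**Figure D4:**
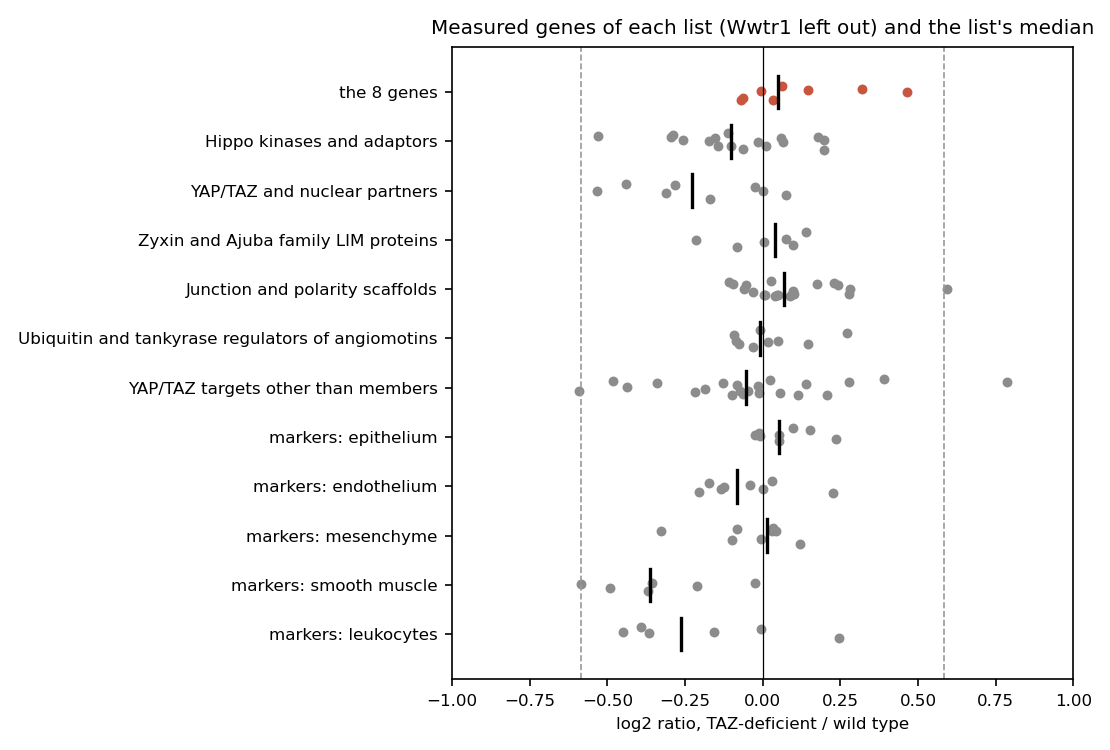
Log2 ratio of each measured gene (points, jittered vertically) in the 8-gene set (red) and in lists of related genes and cell type markers (grey), with Wwtr1 left out, black bars at the medians and dashed lines at 1.5-fold. The 8 genes lie between -0.070 and 0.47 with a median of 0.048; of the marker lists drawn, smooth muscle has the lowest median, -0.36. Red cell and heart muscle markers, with medians of 1.62 and -0.61, are not drawn.

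Because the RNA came from whole lung, fewer cells of a type and less RNA per cell cannot be told apart. Of the lung epithelium markers, the surfactant protein gene Sftpc was the brightest (4142.5 and 4121.5) and Nkx2-1 the dimmest (61.1 and 60.6). The liver marker Alb read 15.3 and 10.7, and the liver markers Afp, Apoa1 and Ttr were below the floor on both arrays. Epithelial markers, 8 of 8 measured, had a summed signal of 8947.6 in the wild type and 9146.8 in the TAZ-deficient pool, and none was 1.5-fold different. Endothelial markers, 8 of 8 measured, summed to 2839.5 and 2688.4, and mesenchymal markers, 8 of 8, to 10714.3 and 10820.3, with none at 1.5-fold. Mesothelial markers, 4 of 5 measured, summed to 782.7 and 778.5, Msln being below the floor. Smooth muscle markers, 6 of 6, were lower in the TAZ-deficient pool (3959.6 and 3658.7), 1 of them by 1.5-fold. Leukocyte markers, 6 of 7 measured with Mpo below the floor, summed to 794.8 and 690.2. Heart markers, 5 of 7 measured with Myh6 and Nppa below the floor, summed to 748.4 and 570.4, and 3 were 1.5-fold lower. Red cell markers, 4 of 6 measured, summed to 1722.1 and 3905.9, and the 3 embryonic globins among them were over 3-fold higher. The sum is carried by these globins, mainly Hbb-y (926.0 and 2825.8), while Alas2, an enzyme of haem synthesis in red cells, read 662.4 and 609.2 and Epb42 was below the floor. Housekeeping genes, 6 of 8 measured, had 0 at 1.5-fold (Actb 3600.0 and 3599.5, Rplp0 4295.1 and 4553.3). Neural markers, 2 of 5 measured, summed to 97.5 and 81.0, Tubb3 and Elavl4 being below the floor. The part of these differences in the values of the 8 genes was not tested.

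The direction of 6 of the 8 genes was the same under all 8 alternative ways of processing. The exceptions were Ptpn14 and Wwc2. The range for Amot was 0.18 to 0.50, and its low end was the median over its probe sets.

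**Figure D5:**
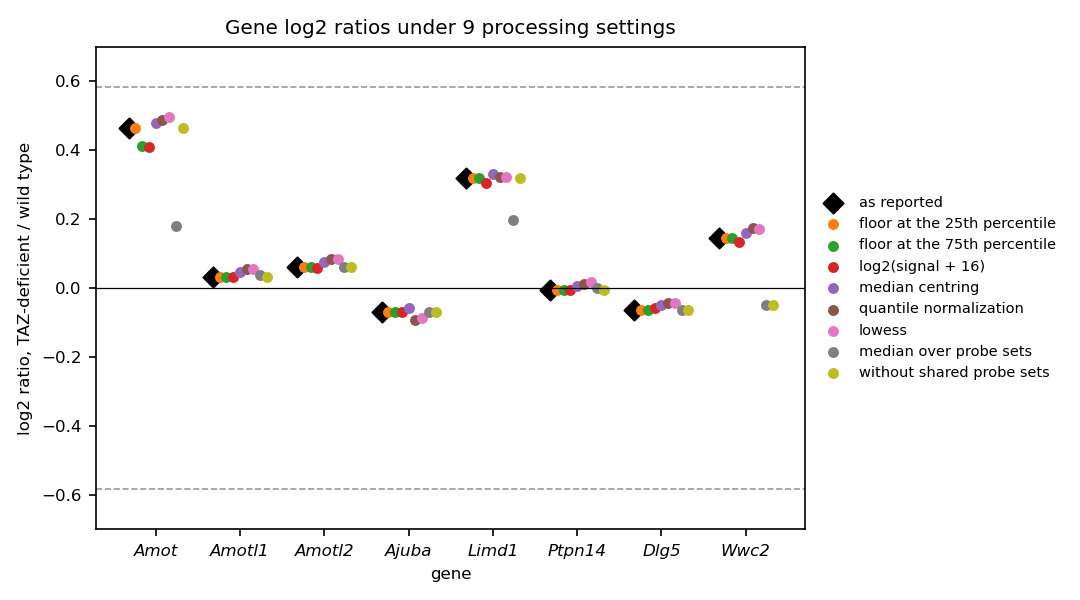
Log2 ratio of each of the 8 genes as reported (diamonds) and under 8 alternative ways of processing (coloured points), with dashed lines at 1.5-fold. No value lies outside the dashed lines; Amot drops to 0.18 with the median over probe sets, and Ptpn14 and Wwc2 have values on both sides of 0.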

How the data were processed

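The authors deposited 1 linear intensity value per probe set and array, for a wild type and a TAZ-deficient pool. GCOS and MAS5 are named, with no version, in the submitters' processing notes. The mean of each array after removal of the lowest and highest 2% of values was 100.001, which points to scaling of whole arrays to a common level. Of 45101 probe sets, 64 were controls, 34945 named 1 gene, 932 several and 9160 none in the platform annotation. For 34741 of them the symbol was taken from GRCm38.p6 RefSeq by Entrez identifier. A gene was represented by its probe set with the highest mean log2 signal. The number of arrays limits the precision. Ratios, counts at 1.5-fold and medians were computed in Python 3.11.15 with pandas 2.3.3 and numpy 2.4.6, and lowess with statsmodels 0.14.6. The counting rule was tested on simulated data. Detection calls were not used.

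The members and lists were chosen with earlier results of these data known. All 8 members were named with every probe set, as was Wwtr1. Of each other list, up to 4 measured genes at least 1.5-fold different were named, or otherwise the 2 brightest. Ccn1, Ccn2 and Igfbp3, the targets nearest to 1.5-fold, were named in addition. Cell type markers were given as summed signals, with single genes named in addition for some types. Those of liver have no sum and are named with their values or as below the floor. The promoter search was added after the values had been seen. Alternatives were other floors, a pseudocount of 16, other scalings and other choices of probe set.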

Additional observations from a re-analysis of the deposited data

How the results depend on the processing

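The count of members at least 1.5-fold different was 0 under all 8 alternatives, and the median log2 ratio of the members ran from 0.013 to 0.071. Under the lower and the higher floor (25th and 75th percentile, 4.3 and 106.3 units) 12.3% and 0.37% of measured genes were 1.5-fold different. With 8 members a count of 0 is near what either share gives and says nothing of stability. The number of genes of the related lists, members and Wwtr1 left out, at least 1.5-fold different was 3 of 83. It was 5 with the lower floor, where Ankrd1 and Nt5e also passed, 0 with the higher floor and 0 with log2(signal + 16). It was 1 without shared probe sets (Crim1) and 1 with the median over all sets of a gene (Myof). With median centring, quantile normalization and lowess it was 2 (Fat4 and Myof). The brightest probe sets of Fat4 and Myof have the suffix of a shared set. Fewer genes were measured with the higher floor (60), and the cause of the other changes was not tested. Wwc2 had a log2 ratio of -0.050 both with the median over probe sets and when shared sets were left out. Ptpn14 had 0.0061 with median centring, 0.013 with quantile normalization and 0.018 with lowess. Among the other results, 118 of 120 values moved by less than the probe set SD of 0.20. The exceptions were Amot with the median over probe sets (0.18) and the median of YAP, TAZ and their nuclear partners with the higher floor. That median, with Wwtr1 included, was -0.28 in the main setting and -0.012 with the higher floor. Many of the 120 values could hardly move by construction, such as a gene's only probe set under other probe set choices. That count therefore says nothing of stability. No paired analysis was possible because each group has 1 array. Signals near the floor limit the dim probe sets of Amot, Amotl1, Dlg5, Ptpn14 and Wwc2.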
